A study of Mus musculus with 3 samples.

Results

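In the wild-type islets, Jun and Fosb made up 0.1% or more of captured transcripts in some beta cells, while most yielded neither. This contrast between cells of 1 library is described here. The transcripts of single islet cells were counted as UMIs (unique molecular identifiers, 1 per captured RNA molecule). The library labelled WT came from 300 islets of 1 mouse of the C57/Bl6 strain and held 12000 of the 25524 cells of the series. The study's methods give the control mice the tamoxifen-activated Cre recombinase under the insulin promoter with unfloxed Taf4 and tamoxifen injections like those of the mutants, whereas the labels say only that the mouse was wild type. The other libraries, labelled Taf4 KO 1 week and Taf4 KO 5 weeks, each came from 300 islets pooled from 2 mice of that strain, in which tamoxifen had removed the TFIID subunit Taf4 from beta cells 1 or 5 weeks earlier. All islets were freed with collagenase, dissociated with Accutase and sorted for live cells before capture, so every value below describes cells after these steps. The study's islet isolation protocol also ends with a period of culture in RPMI medium, and whether the islets used here had it is not given in the sources used here.

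Beta cells were taken as barcodes with 1000 or more UMIs, of which at least 20% were Ins2, under 3% Gcg and under 2% Sst, and 7765 WT barcodes passed. The high side was chosen by a share of Jun plus Fosb of at least 0.1% of the cell's UMIs and held 863 cells, 11.1% of the gated cells. The low side was chosen by having no UMI of either gene and held 5391 cells, 69.4%. The remaining 1511 cells, 19.5%, lay between the sides. Because the cells were selected on Jun and Fosb, the levels of these 2 genes are descriptions and support nothing, and because every other gene was measured in the same cells, all values for WT beta cells are descriptions as well. Both sides come from 1 mouse and 1 library, so cells are not replicates and no test was made. Intervals in parentheses are exact 95% intervals and cover counting error only.

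Jun and Fosb encode subunits of AP-1, a dimeric transcription factor built from a Jun-family and a Fos-family or ATF-family protein. They are immediate early genes, which are transcribed within minutes of a stimulus from factors already present in the cell, and their RNAs are short-lived. In islets such genes are known to respond to glucose and depolarisation in beta cells and to stress during cell isolation. Heat shock proteins are chaperones whose genes are switched on by heat shock factor 1 when proteins misfold, and the endoplasmic reticulum, which folds proinsulin, has its own chaperones under the unfolded protein response.

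On the high side 796 cells had a Jun UMI, 590 a Fosb UMI and 523 both, while 273 had Jun alone and 67 Fosb alone. The cells of this side held 2016 Jun and 1074 Fosb UMIs in all, from 2 to 14 per cell with a median of 3. The share ran from 0.1% to 0.769% with a median of 0.168%. The nearest cells inside the threshold had shares of 0.1%, 0.101% and 0.101%, and the nearest outside had 0.0999%, 0.0999% and 0.0998%. In all 139 cells lay between 0.1% and 0.12% and 290 between 0.08% and 0.1%. A given share needs more UMIs in a deeper cell, which is why levels are also given by depth further on.

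The sides were close in depth and mitochondrial share. The median cell had 1753 UMIs on the high side and 1637 on the low side, and the cells between the sides had 2249. The share of UMIs from mitochondrial genes had a median of 3.27% on the high side and 3.33% on the low side. Among gated cells with 1000 to under 1500 UMIs 10.1% were on the high side (9.06 to 11.3), with 1500 to under 2500 UMIs 12.7% (11.5 to 13.9) and with 2500 or more UMIs 10.1% (8.81 to 11.5). To compare levels at equal depth, each cell was thinned at random to 1000 UMIs and the UMIs were summed per side, and levels are given as CPM, a gene's UMIs per 1000000 summed UMIs of the side. Thinned cells of the high side still had more genes detected, with a median of 287 against 249.

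A few facts of the whole library bear on these values. The 3 libraries held 19472212 to 39408284 UMIs. WT shared 33 barcodes with Taf4 KO 5 weeks and 2 with Taf4 KO 1 week, and 1 high-side and 17 low-side cells carried such a barcode. The WT mouse is described as male, but its library held 17357 Xist UMIs and none of Ddx3y, Eif2s3y, Kdm5d and Uty was among its listed genes. By contrast, Taf4 KO 1 week held 17 Xist and 1488 Ddx3y UMIs, and Taf4 KO 5 weeks 11 Xist and 1349 Ddx3y UMIs. Both sides of the contrast share the WT mouse, and the Xist level was 686 CPM on the high side and 681 CPM on the low side. Gated beta cells held Taf4 at 4.74 CPM in WT, 6.24 CPM at 1 week and 3.48 CPM at 5 weeks. These 3′ reads may lie outside the deleted part, so this level does not check the deletion.

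Beta markers were at like levels on both sides. All 11 beta markers that could be measured stayed within 1.5-fold. Ins1 had 154344 CPM (153516 to 155175) on the high side and 153634 CPM (153303 to 153965) on the low side. Islet amyloid polypeptide, Iapp, had 81638 CPM (81037 to 82244) on the high side and 82759 CPM (82516 to 83002) on the low side. Ins2, which the gate used, had 399406 against 448691 CPM, a log2 ratio of -0.17, and its median share per cell was 40.3% against 45.2%.

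The 2 sides differed most in a short series of genes with large ratios. Among 3103 genes with at least 100 UMIs on both sides together, 366 were 1.5-fold or more higher on the high side, 11.8% of the genes tested, and 67 were 1.5-fold or more lower, 2.16%. These percentages are the background against which each gene list is read, and since the rule used this contrast, nothing is read from them about the cells. At 2-fold 98 genes were higher and 11 lower. The median log2 ratio over all genes was 0.15. With TMM factors it was -0.13 and 125 genes were higher and 240 lower, and with Ins1 and Ins2 left out of the total it was -0.01 with 200 higher and 140 lower. The split between higher and lower genes therefore depends on the scaling, and gene groups are best read against the median of all genes. Of the 366 higher genes 245 had under 200 UMIs. Among the 644 genes with 500 or more UMIs, a limit chosen after the values were seen, 45 were higher, 6.99%, and 1 was lower, 0.155%.

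**Figure D1:**
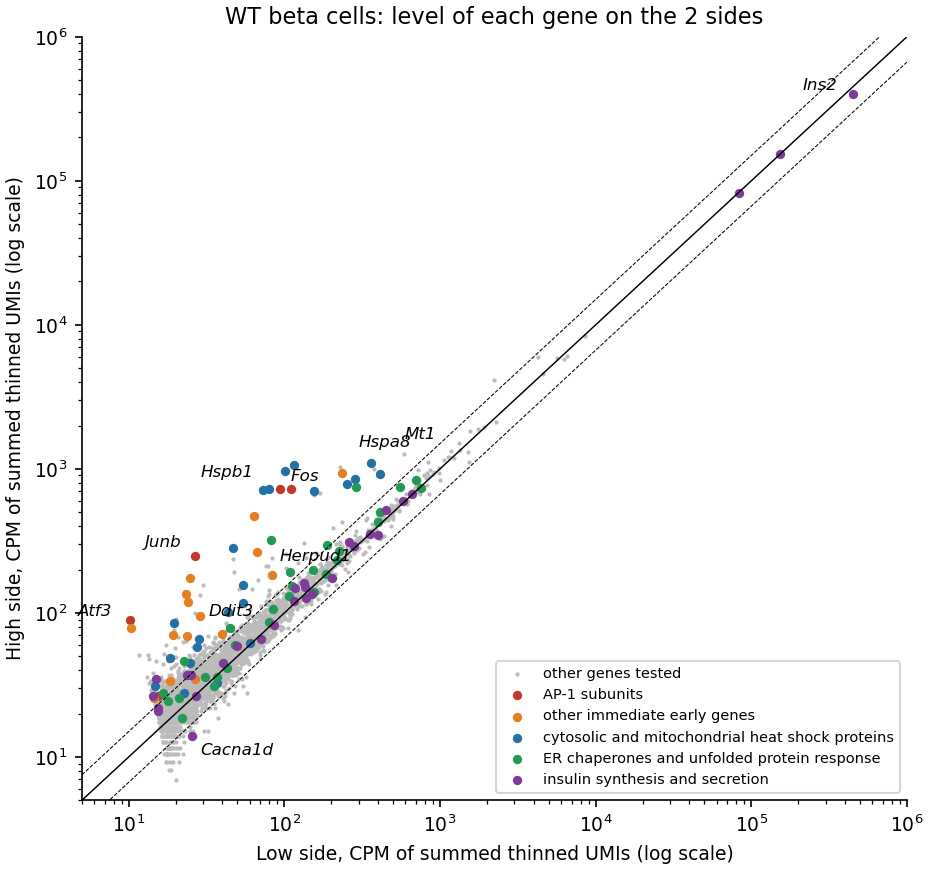
Level of each of the 3103 genes tested in WT beta cells, with the low side (5391 cells) on the x axis and the high side (863 cells) on the y axis, both in CPM of summed thinned UMIs on log scales. The solid line marks equal levels and the dashed lines 1.5-fold. Most heat shock and immediate early genes lie above the upper dashed line, from Atf3 at 89.2 against 10.2 CPM to Hspa8 at 1094 against 361 CPM, and Ins2 lies close to the line of equal levels.

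The promoters of 4 of these genes are shown first, to set the letters of the known binding elements beside the ratios given later. Each window holds 250 bases before and 50 bases from the start of the RefSeq transcript in GRCm38.p6 (mm10), written 5′ to 3′ on the gene's strand. Jun lies on the minus strand of chromosome 4 with its window at chr4:95052173-95052472. Hspa1a lies on the minus strand of chromosome 17 with its window at chr17:34972107-34972406. Hspb1 is on the plus strand of chromosome 5 with its window at chr5:135887669-135887968. Hspe1 is on the plus strand of chromosome 1 with its window at chr1:55087898-55088197. Capitals mark matches on either strand to TGANTCA (the AP-1 site), TGACGTCA (the cyclic AMP response element), TGACATCA (a variant of it known from the Jun promoter), and GAANNTTC or TTCNNGAA (2 facing or 2 opposed units of the heat shock element).
Jun: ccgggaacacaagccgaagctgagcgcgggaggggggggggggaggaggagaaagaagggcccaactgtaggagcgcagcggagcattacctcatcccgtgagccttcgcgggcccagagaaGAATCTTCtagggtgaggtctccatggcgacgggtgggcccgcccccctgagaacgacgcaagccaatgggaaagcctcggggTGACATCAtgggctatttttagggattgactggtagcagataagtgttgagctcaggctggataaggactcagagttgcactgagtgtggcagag
Hspa1a: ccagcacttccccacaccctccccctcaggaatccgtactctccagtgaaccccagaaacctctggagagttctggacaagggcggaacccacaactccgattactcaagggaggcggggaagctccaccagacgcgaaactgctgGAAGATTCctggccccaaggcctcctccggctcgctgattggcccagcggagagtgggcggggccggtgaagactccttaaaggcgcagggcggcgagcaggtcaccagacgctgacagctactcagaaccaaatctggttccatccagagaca
Hspb1: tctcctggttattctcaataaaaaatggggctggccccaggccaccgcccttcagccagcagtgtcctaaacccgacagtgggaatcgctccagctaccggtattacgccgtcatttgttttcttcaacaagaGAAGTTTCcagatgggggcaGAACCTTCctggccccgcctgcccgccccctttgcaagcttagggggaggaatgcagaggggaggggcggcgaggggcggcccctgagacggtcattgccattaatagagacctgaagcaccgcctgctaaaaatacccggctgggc
Hspe1: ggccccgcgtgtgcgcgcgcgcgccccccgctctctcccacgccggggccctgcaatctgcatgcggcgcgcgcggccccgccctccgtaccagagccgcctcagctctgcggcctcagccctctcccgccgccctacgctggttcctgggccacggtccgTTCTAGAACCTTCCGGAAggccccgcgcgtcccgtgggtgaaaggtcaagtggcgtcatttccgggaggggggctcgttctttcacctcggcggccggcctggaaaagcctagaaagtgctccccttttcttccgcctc

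The Jun window held TGACATCA 45 bases and GAATCTTC 128 bases before the start, and the Fosb window at chr7:19309996-19310295 held none of the 5 elements. In Hspa1a the element GAAGATTC began 104 bases before the start, and in Hspb1 there were 2, at 117 and 97 bases. The Hspe1 window held 3 overlapping matches that began 89, 84 and 79 bases before the start. Over the 2472 tested genes with a RefSeq window, 6.43% held GAANNTTC and 7.56% held TTCNNGAA. Of the 19 heat shock genes that were higher, 16 had a window, and 9 of them, 56.3%, held GAANNTTC while 5, 31.3%, held TTCNNGAA. These windows are not independent. The Hspa1a and Hspa1b windows differ at 4 of 300 bases, and a window of Hspd1 overlaps that of Hspe1 on the other strand. Of the 16 higher AP-1 and immediate early genes with a window, 0 held TGANTCA, against 5.38% of all tested genes, and 3 held TGACGTCA (Btg2, Dusp1 and Errfi1), against 4.94%. Among the 291 higher genes with a window the shares were 6.53% for TGANTCA, 7.22% for TGACGTCA, 7.90% for GAANNTTC and 7.22% for TTCNNGAA. A match says only that the letters are present in these 300 bases, and a missing match says nothing of elements elsewhere.

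Other AP-1 subunits were high in the same cells as Jun and Fosb. Of 13 listed subunits beside these 2, 5 reached 100 UMIs and all 5 were 1.5-fold or more higher, against 11.8% of all genes. Their median log2 ratio was 2.95. The limit counts both sides together, so a gene can reach it through its high-side UMIs, and such counts are partly set by the limit. Atf3 reached it with 77 high-side and 55 low-side UMIs. With no limit 10 subunits had a median of 2.02, where a count of 0 on a side was taken as 3 UMIs. Junb, a Jun-family partner at chr8:84976909-84978748, had 249 CPM (217 to 285) on the high side and 26.5 CPM (22.4 to 31.2) on the low side, a log2 ratio of 3.23 (2.92 to 3.55). Fos, the founding Fos-family member at chr12:85473890-85477274, had 723 CPM (667 to 782) on the high side and 93.3 CPM (85.3 to 102) on the low side, a ratio of 2.95 (2.78 to 3.13). Intervals of the 2 sides did not overlap for either gene. Jund, the Jun-family member expressed in most resting cells, had 727 against 111 CPM, and Atf3, a stress-induced ATF-family partner, had 89.2 against 10.2 CPM. Mafg, a small Maf protein that can bind next to AP-1 proteins, had only 23 high-side UMIs and 26.7 against 15.4 CPM, and in cells with 2500 or more UMIs its log2 ratio was -0.43.

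Immediate early genes outside AP-1 were also higher as a group. Of 55 listed genes 15 reached 100 UMIs and 14 were 1.5-fold or more higher, against 11.8% of all genes, with a median log2 ratio of 1.87. Klf6 reached the limit with 68 high-side and 56 low-side UMIs. With TMM factors the medians of the AP-1, other immediate early and heat shock lists were 2.67, 1.59 and 1.18. Egr1, a zinc-finger transcription factor, had 472 CPM (427 to 519.7) on the high side and 64.2 CPM (57.6 to 71.3) on the low side. Klf6, a Krüppel-like factor, had 78.8 against 10.4 CPM and Ier2, a nuclear immediate early protein, 175 against 24.7 CPM. Dusp1, a phosphatase that switches MAP kinases off, had 134 against 23.4 CPM. Rhob, a short-lived small GTPase, had 119 against 24.1 CPM. Gadd45g, of the growth arrest and DNA damage family, was the most abundant of the group at 933 against 234 CPM, and Btg1, an antiproliferative protein, had 183 against 83.7 CPM. Transcription factors, a phosphatase and growth-arrest genes thus all stood on the same side.

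The highest ratios of heat shock proteins were as large as those of AP-1 subunits. Of 27 listed genes 22 were tested, 19 were 1.5-fold or more higher and 0 were lower, beside 11.8% higher among all genes. The list's median log2 ratio was 1.46, and its summed level was 9016 CPM on the high side and 2316 CPM on the low side. Hspb1, a small heat shock protein on chr5:135887919-135889563, had the highest ratio of all genes tested. It had 717 CPM (662 to 776) on the high side and 72.9 CPM (65.9 to 80.5) on the low side, a log2 ratio of 3.30 (3.11 to 3.48). Hspa1a and Hspa1b encode the inducible Hsp70 and are near-identical copies, so reads may have been split between them. Hspa1a had 973 CPM (909 to 1041) on the high side and 101 CPM (92.6 to 109.8) on the low side, and Hspa1b had 1060.2 against 116 CPM. Dnajb1, the Hsp40 partner of Hsp70, had 724 CPM (669 to 783) on the high side and 79.8 CPM (72.4 to 87.7) on the low side.

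Chaperones that are made in unstressed cells showed smaller ratios from a higher base. Hspa8, the constitutive Hsp70, had 1094 CPM (1025 to 1166) on the high side and 361 CPM (345 to 377) on the low side, a log2 ratio of 1.601 (1.49 to 1.71). Hsp90ab1, the constitutive cytosolic Hsp90, had 924 against 412 CPM. Intermediate ratios were found for Hsph1, a nucleotide exchange factor for Hsp70, at 284 against 47.1 CPM, and for the Hsp40 co-chaperone Dnaja1, at 699.9 against 156 CPM. Hspe1, the mitochondrial co-chaperonin, had 854 against 286 CPM. Dnaja4, another Hsp40 protein that was not on the list but was among the 15 highest ratios, had 156 against 30.1 CPM. The highest ratios thus included both cytosolic inducible chaperones and AP-1 genes, and 18 of the 30 highest ratios came from the AP-1, immediate early and heat shock lists.

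**Figure D2:**
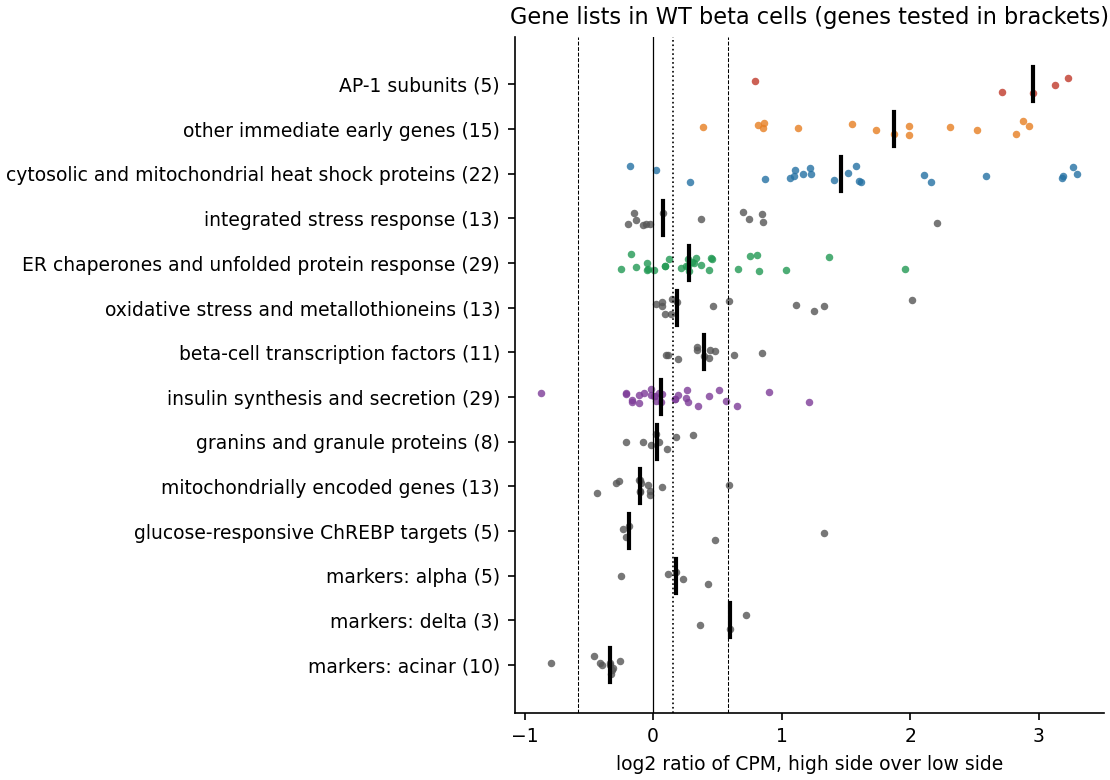
Log2 ratio of CPM, high side over low side, for each tested gene (points) of 14 gene lists in WT beta cells, with the median of each list as a black bar. The dotted line is the median of all 3103 genes, 0.15, and the dashed lines are 1.5-fold. The medians of the AP-1, other immediate early and heat shock lists lie at 2.95, 1.87 and 1.46, and that of the acinar markers at -0.34.

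The unfolded protein response and the integrated stress response, whose genes include Atf4 and its target Ddit3, were each higher in some of their genes. Of 29 tested endoplasmic reticulum genes 7 were higher and 0 lower, beside 11.8% higher among all genes, with a median log2 ratio of 0.28, against 0.15 for all genes, and with TMM factors the list's median was 0.000509 against -0.13. The summed level of the list was 6758 CPM against 5157 CPM, a log2 ratio of 0.39 (0.35 to 0.43). Herpud1, a membrane protein of ER-associated degradation at chr8:94386429-94395371, had 321 CPM (284 to 361) on the high side and 82.4 CPM (74.9 to 90.4) on the low side. Hspa5, the luminal chaperone BiP, had 745 CPM (689 to 805) on the high side and 288 CPM (274 to 303) on the low side. Sel1l, a scaffold of ER-associated degradation, had 46.3 against 22.6 CPM, Sdf2l1 had 191 against 108 CPM and the disulfide isomerase Pdia4 had 78.8 against 45.1 CPM. With TMM factors Sdf2l1 and Pdia4 had log2 ratios of 0.54 and 0.53 and were under 1.5-fold. Other abundant members stayed within 1.5-fold. The translocon subunit Sec61b had 735 against 755 CPM, and Manf, a secreted ER stress protein, had 745 against 549.8 CPM.

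Of 13 tested genes of the integrated stress response 5 were higher and 0 lower, beside 11.8% higher among all genes. The list's median log2 ratio was 0.08, against 0.15 for all genes, and -0.20 with TMM factors. With another random thinning it was 0.40, against 0.148 for all genes, and without thinning 0.53 against 0.164. Its place below or above all genes thus depended on the thinning. Ddit3, the transcription factor CHOP at chr10:127290793-127296291, had 133 CPM (110.0 to 160.0) on the high side and 28.8 CPM (24.4 to 33.7) on the low side, a log2 ratio of 2.21 (1.85 to 2.57). Atf4, whose RNA is mainly controlled at translation, had 144 against 79.9 CPM. Cebpb, Eif4ebp1 and Nars, an asparagine tRNA ligase, had log2 ratios of 0.74, 0.70 and 0.86 from 35 to 45 high-side UMIs each. With TMM factors these ratios were 0.46, 0.42 and 0.58 and that of Atf4 was 0.57, all under 1.5-fold. Nupr1 and Atf5, both targets of Atf4, had ratios of -0.19 and -0.08. Ddit3 was thus apart from the rest of its list, with a ratio more than 1 log2 unit above the next member.

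Genes of oxidative stress and metal binding were split. Of 13 tested 5 were higher and 0 lower, beside 11.8% higher among all genes. The list's median log2 ratio was 0.19, against 0.15 for all genes, and -0.09 with TMM factors. Txnrd1, 1 of the 5, had 21 high-side UMIs and a ratio of 0.59 (-0.17 to 1.29). Gpx1, a glutathione peroxidase, had 191 CPM (163 to 223) on the high side and 47.3 CPM (41.7 to 53.5) on the low side. The metallothioneins Mt1 and Mt2 had 1270.0 against 589 CPM and 147 against 61.8 CPM. Txnip, which binds thioredoxin and is a glucose-responsive target of ChREBP, had 169 against 67.3 CPM, while the other 4 tested ChREBP targets stayed within 1.5-fold. The peroxiredoxin Prdx1 had 297 against 260.4 CPM and Gpx4 192 against 183 CPM. Nfkbia, the inhibitor of NF-kB and itself its target, had 90.4 against 20.03 CPM, whereas the NF-kB target Sod2 had 111 against 93.9 CPM. Among 5 tested p53 targets, Trp53inp1 was higher at 49.8 against 19.5 CPM, Ei24 was lower and Bax had 102 against 103 CPM.

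Genes of beta-cell function differed little. Of 11 tested beta-cell transcription factors 2 were 1.5-fold higher and 0 lower, beside 11.8% higher among all genes. The list's median of 0.39 remained above 0 with TMM factors, at 0.12. Foxa2, 1 of the 2, had 28 high-side UMIs and a ratio of 0.63 (-0.02 to 1.24). Pdx1, a master regulator of the insulin gene, had 62.6 against 34.9 CPM, a log2 ratio of 0.84 (0.38 to 1.29), which was 0.56 with TMM factors and then under 1.5-fold. Mafa, an activator of the insulin gene in mature cells, had 139 CPM (115 to 166) on the high side and 128 CPM (119 to 138) on the low side. Nkx6-1, which maintains beta identity, had 149 against 110.4 CPM. The ratio of Pdx1 was 1.36, 0.30 and 0.82 in cells with 1000 to under 1500, 1500 to under 2500 and 2500 or more UMIs.

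Among 29 tested genes of insulin synthesis and secretion 3 were higher and 1 was lower, beside 11.8% higher and 2.16% lower among all genes. Among the higher genes, Rab27a, a granule GTPase, had a ratio of 0.90 (0.16 to 1.59), and Syt7, a calcium sensor of exocytosis, 0.65 (0.05 to 1.22). The calcium channel gene Cacna1d had 12 high-side UMIs and a ratio of -0.87 (-1.86 to -0.02), which was 0.0045 with another random thinning. All 8 granin and granule genes stayed within 1.5-fold, with Chga at 1889 against 1755 CPM and Pcsk1n at 1942 against 1915 CPM. Of 13 mitochondrially encoded genes 1 was higher, mt-Nd6 with 38 high-side UMIs, and mt-Co1 had 8379 against 8503 CPM. Of 81 tested ribosomal protein genes 0 were higher and 1 was lower, Rpl13a, with 10 high-side UMIs. Malat1, a nuclear RNA, had 5986 against 4290.5 CPM, a log2 ratio of 0.48 (0.44 to 0.52).

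Genes on no list made up 299 of the 366 higher genes, and several of those with 500 or more UMIs are named here after their values were seen. The cytoplasmic actins Actg1 and Actb had 1032 against 227 CPM and 1001 against 375 CPM, and destrin, Dstn, which takes actin filaments apart, had 255 against 102 CPM. The polyubiquitin gene Ubb had 4170.3 against 2235 CPM and was the most abundant gene past 1.5-fold. C2cd4b had 683 against 170.5 CPM, the transcriptional co-regulator Cited2 212 against 76.6 CPM and Tsc22d1 212 against 78.3 CPM. Outside this class, the keratin gene Krt8 had 238 against 46.6 CPM, from only 205 high-side and 251 low-side UMIs. Its partner Krt18, which is on the ductal marker list, had 239.9 against 82.9 CPM. Pam, the enzyme that amidates peptide hormones, was the 1 gene with 500 or more UMIs that was lower. It had 76.5 CPM (59.1 to 97.3) on the high side and 122 CPM (113 to 132) on the low side.

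Lower genes rested on few molecules. The 15 lowest log2 ratios ran from -1.53 for Zfp771 to -0.94 for Coq7, with 6 to 24 high-side UMIs each, and in order they were Zfp771, Stmn3, Apoo, Pdha1, Nudt14, Tmigd3, Alkbh7, Zranb2, Map7, Ei24, Tm2d3, 1700023F06Rik, Dmxl2, 9330182L06Rik and Coq7. Zranb2, a splicing protein and the most counted of them, had 27.8 CPM (17.8 to 41.4) on the high side and 57.5 CPM (51.3 to 64.3) on the low side. Over all 67 lower genes the median was 10 high-side UMIs, and in 24 the interval of the ratio lay wholly below 0, against 307 of the 366 higher genes. With another random thinning 24 of the 61 lower genes that could be tested were lower again, and 236 of 343 higher genes were higher again.

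Markers of other cell types were measured on both sides. All 10 acinar markers were lower on the high side, Cel past 1.5-fold, and their summed level was 4246 CPM against 5457 CPM. Of all 3103 genes tested 2158 had a ratio above 0, and 2.16% were 1.5-fold or more lower. The alpha list summed to 3221 CPM against 2648 CPM, and the delta list to 378 CPM against 273 CPM. Of 3 tested delta markers 2 were 1.5-fold or more higher, beside 11.8% of all genes. These were Fam159b and Rbp4, with log2 ratios of 0.73 and 0.60. With TMM factors they had 0.45 and 0.32 and were under 1.5-fold. Gcg, limited by the gate, had 1834 against 1561 CPM, and Sst had 239.9 against 187 CPM. The endothelial list had 2 UMIs on the high side and 15 on the low side, with 7 of 8 markers at 0 on the high side. The macrophage list had 55 and 442 UMIs, with 5 of 8 markers at 0 on the high side. PP markers summed to 490.2 CPM against 457 CPM. Mesenchymal, T or B and erythroid markers each summed to at most 22.02 CPM on either side. The ductal list summed to 320 CPM against 165 CPM, a log2 ratio of 0.96 (0.76 to 1.15). Of its 7 markers 2 were tested, Krt18, given above, and Krt7, at 66.0 against 74.6 CPM. The part of these transcripts in the results was not tested.

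Levels followed the share of Jun plus Fosb across the whole range. In cells with no UMI, with a share above 0 and under 0.1%, from 0.1% to under 0.2% (570 cells), and of 0.2% or more (293 cells), Fos had 93.3, 347, 612 and 939 CPM. Dnajb1 had 79.8, 295, 621 and 925 CPM in the same order, and Hspb1 72.9, 257, 579 and 986 CPM. Each step was higher than the one before for all 3 genes. Ddit3 had 28.8, 61.5, 100 and 198 CPM and Hspa5 288, 430.2, 663 and 904 CPM, again higher at each step. Mafa had 128, 131, 137 and 143 CPM, where the intervals of all 4 bins overlapped, and the acinar gene Ctrb1 had 1527, 1488, 1051 and 1222 CPM. Ins2 had 448691, 424420.0, 403912 and 390638 CPM, lower at each step. The cells between the sides were deeper, and these levels are from 1000 UMIs per cell in every bin.

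**Figure D3:**
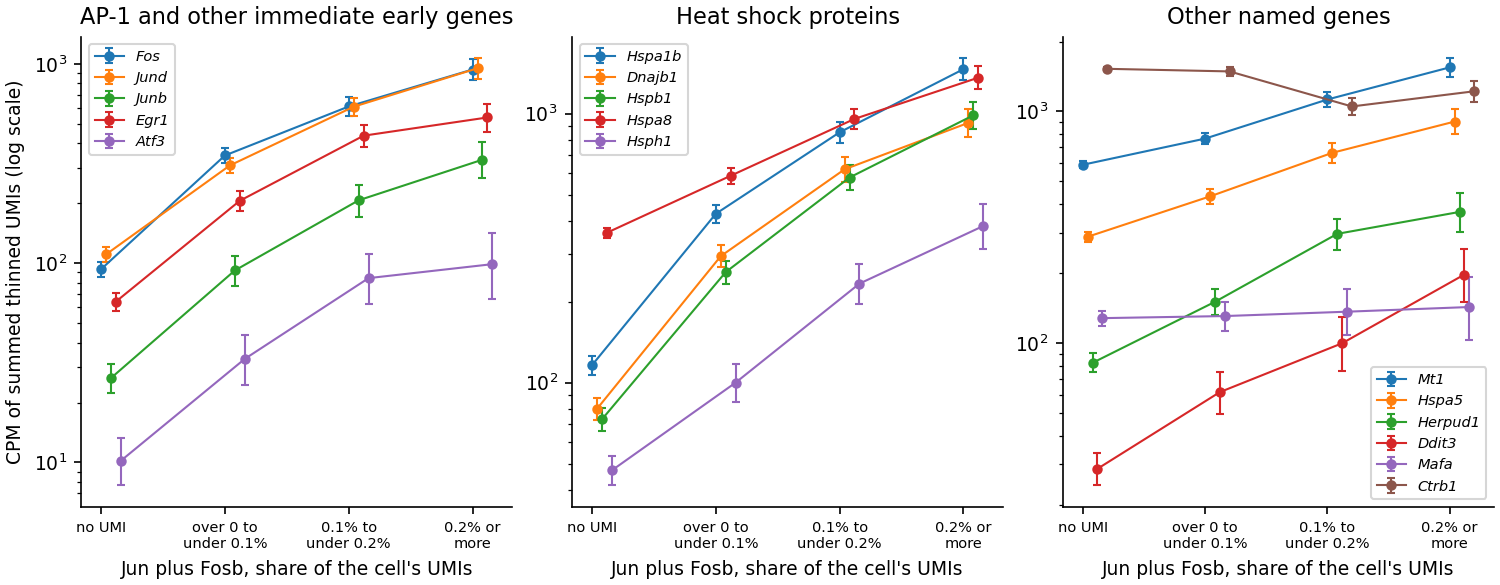
Level of 16 named genes in WT beta cells (y axis, CPM of summed thinned UMIs, log scale) by the share of Jun plus Fosb in the cell (x axis, 4 bins of 5391, 1511, 570 and 293 cells). Points are summed levels and bars exact 95% Poisson intervals. Fos runs from 93.3 to 939 CPM and Hspa1b from 116 to 1464 CPM over the 4 bins, and Mafa from 128 to 143 CPM.

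The largest ratios were present at each depth. For Hspb1 the log2 ratio was 3.27, 3.34 and 3.29 in cells with 1000 to under 1500, 1500 to under 2500 and 2500 or more UMIs. For Fos it was 2.90, 3.01 and 2.99, for Egr1 2.65, 3.20 and 2.80 and for Herpud1 1.77, 2.12 and 2.02. Of the 366 higher genes 91, 89 and 45 could be tested in the 3 depth classes, and 73, 79 and 40 of them were 1.5-fold or more higher there. The ratio of Atf3 was lower in the shallowest class, at 2.24, 3.62 and 3.51.

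The high side was also split by which of both genes a cell held. In the 273 cells with Jun alone, the 67 with Fosb alone and the 523 with both, Fos had 788, 657 and 698 CPM. Dnajb1 had 623, 522 and 803 CPM in these cells, Egr1 418, 343 and 516 CPM and Hspa8 1037, 1134 and 1119 CPM. All 3 kinds of cell lay far above the low side, where Fos had 93.3 CPM and Dnajb1 79.8 CPM. Their median depths were 1593, 1486 and 1925 UMIs.

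Heat shock transcripts were also found in cells of the low side. After thinning, 625 high-side cells, 72.4% (69.3 to 75.4), had at least 1 UMI of Hspa1a or Hspa1b, against 810 low-side cells, 15.02% (14.1 to 16.0), and 629 of the cells between the sides, 41.6% (39.1 to 44.2). In 85 WT barcodes with 10% or more acinar UMIs, whose median depth was 2006 UMIs, the share was 38.8% (28.4 to 50.01), and the share was taken in no other cell type. On the low side, Fos had 231 CPM (199 to 266) in cells with such a UMI and 69.0 CPM (61.6 to 77.0) in cells without. On the high side, Fos had 832 CPM (762 to 907) with and 437 CPM (357 to 529) without. High-side cells without an Hspa1a or Hspa1b UMI thus had more Fos than low-side cells with one.

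The same order held for other genes. Dnajb1 had 851 and 391 CPM in high-side cells with and without an Hspa1a or Hspa1b UMI, and 211 and 56.5 CPM in the low-side cells. Herpud1 had 374, 181, 129.6 and 74.0 CPM in that order, and Ddit3 149, 92.4, 40.7 and 26.6 CPM. For Herpud1 the intervals of high-side cells without and low-side cells with a UMI overlapped. Ins2 ran the other way, at 395730.0, 409059, 428501 and 452261 CPM. Median depths of the 4 kinds of cell ran from 1636 to 1794 UMIs.

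**Figure D4:**
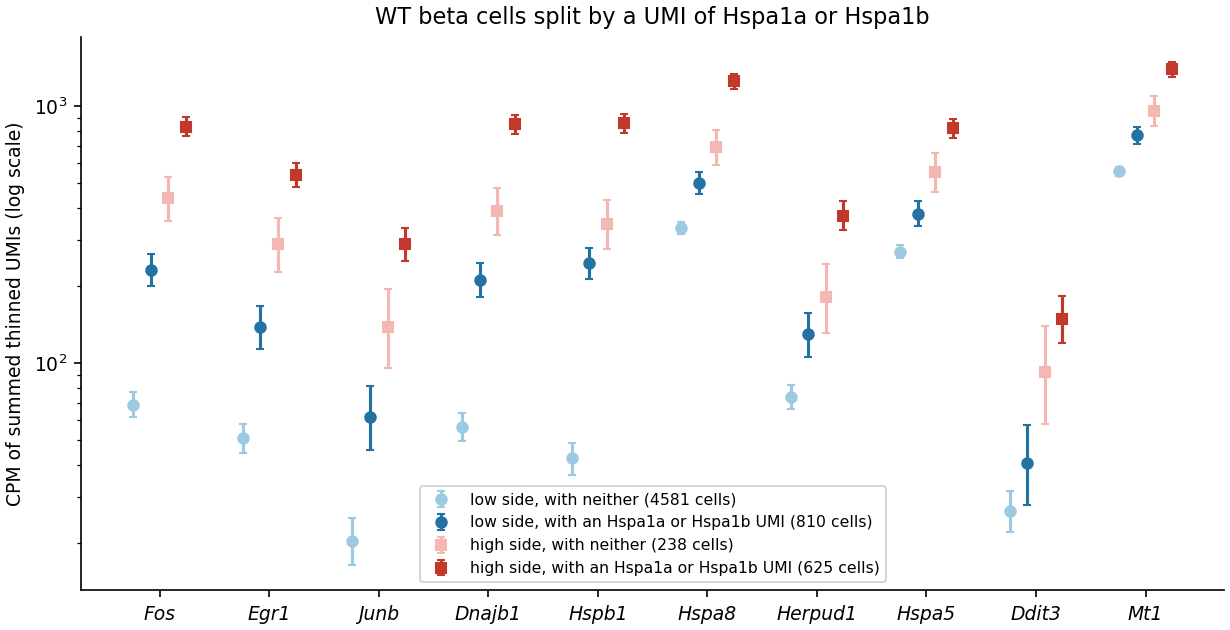
Levels of 10 genes (y axis, CPM of summed thinned UMIs, log scale) in WT beta cells of the low side (circles) and high side (squares), each split by the presence of an Hspa1a or Hspa1b UMI after thinning. Points are summed levels and bars exact 95% Poisson intervals. For each gene the order from lowest to highest is low side with neither, low side with a UMI, high side with neither and high side with a UMI, for example 69.0, 231, 437 and 832 CPM for Fos.

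The same rule was then applied to cells that had not been used to choose it. In the library labelled Taf4 KO 5 weeks 5106 cells passed the beta gate, 1965 of them, 38.5% (37.1 to 39.8), were on the high side and 1214 on the low side. The gated cells were deeper there, with a median of 4044 UMIs against 1721 in WT. The libraries also differed in Xist and Y-linked transcripts. Genotype, sex, animal and library cannot be told apart, so these shares stand side by side without a comparison. Among 1935 genes tested, 179 were 1.5-fold or more higher, 9.25%, and 9 were lower, 0.465%. Of the 366 genes higher in WT beta cells 200 could be tested and 79 of them, 39.5%, were higher, 177 had a ratio above 0 and 0 were 1.5-fold lower. Of the 158 genes higher at 5 weeks that could be tested in WT, 50% were higher there. Of 14 lower WT genes tested, 1 was lower at 5 weeks. Across 1889 genes Pearson's r of the ratios was 0.61 and Spearman's rho 0.26, where genes within a library share its cells and depth.

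The lists led in the same order at 5 weeks. All 4 tested AP-1 subunits, all 18 other immediate early genes and 15 of 21 heat shock genes were higher, beside 9.25% of all genes tested there. Their medians were 2.22, 1.63 and 1.42. The log2 ratio of Hspb1 was 2.79 (2.51 to 3.09) against 3.30 (3.11 to 3.48) in WT. Fos had 2.19 (2.08 to 2.31), and Dnajb1 2.25 (2.09 to 2.42). The ratios of Herpud1, 1.77 (1.602 to 1.95), Ddit3, 2.08 (1.77 to 2.40), and Hspa5, 1.39 (1.29 to 1.49), lay near their WT values. Pdx1, 1.5-fold higher in WT, had -0.24 (-0.58 to 0.12), and Mt2 had 0.29 (0.05 to 0.53) against 1.25 in WT. Actg1 and C2cd4b had ratios of 1.91 and 1.44, against 2.18 and 2.00 in WT. Cited2 had 0.70 against 1.47 in WT. Pam, lower in WT at -0.67, had 0.05 at 5 weeks and so was not lower there. Some hormones of other islet cells were higher on the high side at 5 weeks. The study's methods give the removal of cells with several hormones and of doublets for the WT sample only. The WT ratios of these hormones thus come from a filtered library. Sst, kept under 2% by the gate, had a ratio of 2.24 (2.08 to 2.41), Ppy 1.98 (1.73 to 2.25) and Pyy 1.52 (1.36 to 1.68), and their part in the other ratios was not tested. The alpha genes Gcg and Ttr had 0.25 (0.16 to 0.34) and -0.34 (-0.49 to -0.19), both within 1.5-fold.

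In WT alpha cells, gated by Gcg at 15% or more, 619 cells passed, 142 of them, 22.9% (19.7 to 26.5), were on the high side and 309 on the low side. These sums are small, and 308 genes could be tested, of which 14, 4.55%, were 1.5-fold or more higher. Of 24 genes higher in beta cells that could be tested, 11 were higher in alpha cells and 22 had a ratio above 0. Of 9 tested heat shock genes 7 were higher, and of 3 tested AP-1 subunits 2. Hspb1 had a ratio of 2.08 (1.74 to 2.42) and Dnajb1 1.43 (1.05 to 1.80). Atf3 had 1.49 (0.94 to 2.05) and Jund 0.84 (0.46 to 1.22). Fos had 0.51 (0.11 to 0.90) and Dnaja1 0.41 (-0.05 to 0.86), both below the WT beta values by more than 1 log2 unit. Hspa5 had -0.39 (-1.02 to 0.21), against 1.37 (1.24 to 1.504) in beta cells. In these alpha cells Malat1 had a ratio of 0.19 (0.11 to 0.27).

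**Figure D5:**
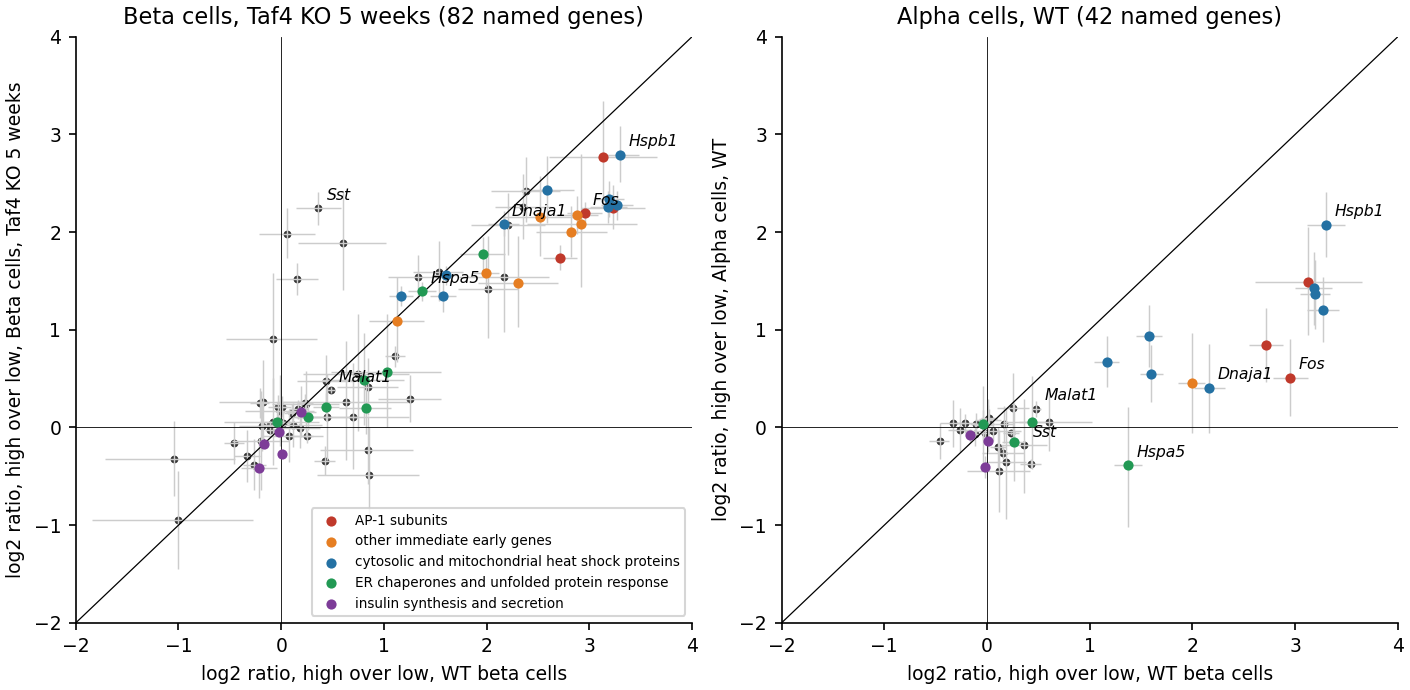
Log2 ratio, high over low side, of named genes in WT beta cells (x axis) and, on the y axis, in beta cells of the library labelled Taf4 KO 5 weeks (left, 82 genes) and in WT alpha cells (right, 42 genes). Bars are exact 95% intervals for counting error and the diagonal marks equal ratios. The AP-1 and heat shock genes drawn lie above 1 on both axes at left, with Sst at 0.36 and 2.24, and below the diagonal at right.

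In the library labelled Taf4 KO 1 week 417 cells passed the beta gate, with a median of 27440 UMIs, and 2 were on the high side, 0.480% (0.0581 to 1.72). No contrast could be made there.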

How the data were processed

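Islet cells of 1 WT library and of the libraries labelled Taf4 KO 1 week and Taf4 KO 5 weeks were analysed. Per the labels, cells were captured with 10X Genomics Chromium and 3′ libraries were made. The deposited tables hold unnormalised UMI counts, with genes in rows and barcodes in columns. The authors aligned reads to mm10 with Cell Ranger 3.1 and removed genes without expression. The WT table had further cells taken out by the authors, those with hormones of several classes and those that DoubletFinder scored as doublets, and was brought down to 12000 cells. The study's methods give this removal for the WT sample only. The submitters' processing notes also name bcl2fastq 2.17.1.14 and Seurat 3.1.4. Whether counting used strand is not given in the sources used here, so genes that overlap an antisense gene are uncertain.

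No cell was removed here beyond the gate, and no doublet caller was run. Each gated cell was thinned without replacement to 1000 UMIs (seed 1), and UMIs were summed per side. Ratios were computed with scipy 1.17.1 and numpy 2.4.6 under Python 3.11.15, for genes with 100 or more UMIs on both sides together, leaving out Jun and Fosb. Where a side had 0 UMIs, 3 were taken as its upper limit. Intervals are exact 95% Poisson, binomial or conditional binomial intervals. A self-test covered only those of the ratios. Its simulated cells of a side all shared the same profile, so it cannot speak to variation between real cells. TMM factors came from edgeR 4.0.16 in R 4.3.3, and figures from matplotlib 3.10.9. Promoter windows are RefSeq's for GRCm38.p6, the build of the counts.

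The members and lists were chosen with earlier results of these data known. Named genes are Jun and Fosb, the 15 highest and 15 lowest ratios with at least 3 UMIs on each side, and per list the members past 1.5-fold (at most 6) and the 3 most abundant; some genes that the rule names are not reported here. The rule named promoters of AP-1 and immediate early genes. Those of heat shock genes, the genes on no list, the split by Hspa1a or Hspa1b and the limit of 500 UMIs were added after values were seen.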

Additional observations from a re-analysis of the deposited data

How the results depend on the processing

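With 1 library no replicate could be left out, and no paired analysis was possible because every group had 1 sample. Against 366 higher and 67 lower genes, TMM factors gave 125 and 240, and leaving Ins1 and Ins2 out of the total gave 200 and 140. A minimum of 50 UMIs gave 863 and 267, of 200 UMIs 121 and 14 and of 500 UMIs (added after seeing the data) 45 and 1. No minimum gave 6037 and 1082. There a count of 0 was taken as 3 UMIs, so a gene absent from the high side could count as higher. Cd3d, with 0 high-side and 1 low-side UMI, had a log2 ratio of 4.23. At 2-fold they were 98 and 11. Without thinning 610 were higher. Sides set from thinned UMIs gave 37 lower, a high side at 0.2% or more 220 lower and sides by Jun alone 143 lower, whereas sides by Fosb alone gave 734 higher and 390 lower. Cells with 1000 to under 1500 UMIs gave 140 higher, with 1500 to under 2500 UMIs 140 and 33, and with 2500 or more UMIs 70 and 18. A mitochondrial share at or under the median gave 165 higher and one over it 215. Fewer genes could be tested in fewer cells, and for the other settings the cause was not tested.

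The 15 highest log2 ratios stayed between 1.59 (Krt8) and 3.80 (Atf3) over 16 alternatives that can move a ratio. Ratios that changed sign included those of thinly counted genes. With cells of 2500 or more UMIs the ratio was 0.047 for Tm2d3, -0.43 for Mafg, -0.54 for Cebpb and -0.23 for Snhg12, and with cells of 1000 to under 1500 UMIs it was -0.37 for Syt7. Thinning to 2000 UMIs gave 0.25 for Pdha1, 0.27 for Nudt14, 0.12 for Tm2d3 and 0.14 for 1700023F06Rik. A high side at 0.2% or more gave 0.13 for Stmn3, -0.69 for Atf6 and -0.20 for Syt7. Another random thinning gave 0.016 for 1700023F06Rik, 0.077 for Dmxl2 and 0.0045 for Cacna1d, and no thinning 0.095 for 1700023F06Rik. Sides by Fosb alone gave -0.80 for Snhg12, and a mitochondrial share at or under the median -0.32 for Txnrd1. Leaving out cells with shared barcodes, added after seeing the data, turned no ratio. Cells with no acinar UMI numbered 17 on the high side and 98 on the low side, and this alternative was not run because a side had fewer than 50 cells.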

Other observations

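Other cells of the WT library carried Jun and Fosb at other frequencies. The share of cells at 0.1% or more was 22.9% in 619 alpha cells (19.7 to 26.5, exact binomial 95% interval), 53.5% in 43 delta cells (37.7 to 68.8) and 5.88% in 85 acinar cells (1.94 to 13.2), against 11.1% in 7765 beta cells (10.4 to 11.8). Their median depths were 1218, 1133, 2006 and 1721 UMIs, and the share needs fewer UMIs in a shallower cell. Delta cells were taken at an Sst share of 10% or more, in a library from which cells with hormones of several classes had been removed, and were too few for a contrast of the sides.

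Levels of the genes with the highest ratios also differed between these gates. Hspb1, the small heat shock protein, had 5721 CPM in delta cells, 679 CPM in alpha cells, 682 CPM in acinar cells and 180.4 CPM in beta cells. Jun had 1698, 578, 271 and 217 CPM in the same order, and Fos had 1140 CPM, 544 CPM, 176 CPM and 213 CPM. Delta cells thus had the highest level of all 3 genes, from 43 cells thinned to 1000 UMIs each. Mt1, a metallothionein, had 1612 CPM in acinar cells and 699 CPM in beta cells, against 162 CPM in alpha cells and 93.0 CPM in delta cells. Ddit3 was at 106 CPM in acinar cells and at 46.7 CPM in beta cells.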
